A study of Glycine max with 8 samples.

Results

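The 530 regions described here carried peaks of a WOX9-like protein of soybean (Glycine max) in seeds with globular embryos, were among the stronger sites of both globular libraries, and had no called peak in seeds with heart-stage embryos. They were drawn from 75046 regions. Chromatin immunoprecipitation followed by sequencing (ChIP-seq) had been carried out on whole seeds of the cultivar Williams 82 with a polyclonal rabbit antibody raised against a peptide of the protein. The globular group was seeds 1.0 to 1.5 mm long and the heart group was seeds 1.7 to 2.1 mm long, with 2 ChIP libraries and 2 input libraries per stage. Only the peak lists of the 4 ChIP libraries were used. All groups share the cultivar, the cross-linking and the greenhouse conditions, and no plant was mutant or treated. The labels do not say whether the libraries of a stage came from separate plants. Whole seeds hold embryo, endosperm and seed coat, so a peak cannot be placed in any of them, and fewer cells with a bound site and weaker binding per cell cannot be told apart.

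WUSCHEL-related homeobox (WOX) proteins are plant transcription factors that bind DNA through a homeodomain. In Arabidopsis, WOX9 is known for sustaining cell division in the shoot meristem, and together with WOX8 it acts in the basal lineage of the young embryo, which forms the suspensor. At the globular stage the embryo is still a ball of cells on its suspensor, and at the heart stage the cotyledons begin to grow out. Which sites are occupied early, and no longer called when the cotyledons emerge, is the question that these regions bear on.

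The regions were chosen by the calls themselves. Peaks of different libraries were joined when their overlap reached 50% of the shorter one, and peaks linked in this way made 1 region. A region was kept when both globular libraries and neither heart library had a peak in it, and when its best peak was in the stronger 50% of both globular lists by fold enrichment. Fold enrichment is the authors' value for each peak, the signal at the summit over the local background that the caller set for that library. A rank percentile gives a peak's place in its own list, with 0 for the strongest. Absence from the heart lists and strength in the globular lists are therefore not findings, no test is given for them, and a site without a call may still have been occupied below the calling threshold. Regions are given by position alone, counted from 1, since the files name no genome build and neither a sequence nor gene models of that build were used here.

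Both globular libraries called 32967 regions, of which 3469 (10.5%) had no heart call. Among these globular-only regions, 530 (15.3%) were in the stronger 50% of both globular lists, while 2311 were so in replicate 1 only, 57 in replicate 2 only and 571 in neither. Regions called in all 4 libraries met the same limit far more often, 12836 of 27270 (47.1%). The regions studied here thus made up 3.79% of the 13982 regions that were strong in both globular libraries. The mirror image at the heart stage, regions in the stronger 50% of both heart lists with no globular call, numbered 845 of 23815 (3.55%). All these shares follow from the rule and describe it.

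The strongest region by the worse of its 2 globular ranks was on chromosome 17 from 40701588 to 40703120. Its fold enrichment was 15.8 in globular replicate 1 and 13.5 in globular replicate 2, at rank percentiles of 3.95 and 1.49. It was the only member in the top 10% of both lists, where 1740 other regions were called in all 4 libraries. Under the formulas of the peak caller, these values stand for 100 fragments over the summit against a background of 5.39 in replicate 1 and 235 fragments against 16.5 in replicate 2. The summits of the 2 libraries lay 11 bp apart, and the nearest heart peak was 2847 bp away.

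Next came a region of chromosome 2 from 14878039 to 14878950, where replicate 1 gave a fold of 13.6 and replicate 2 one of 7.74. It was the only one of the 20 strongest with a heart peak over its edge, a weak peak of heart replicate 1 (rank percentile 93.8, fold 2.99) that overlapped it by 38 bp, too little to be joined. The third was on chromosome 11 from 15569011 to 15569559, with folds of 20.02 and 7.49 and the nearest heart peak 3988 bp away. The fourth, on chromosome 7 from 16671965 to 16672972, had folds of 11.2 and 7.86. These 4 were higher in replicate 1 than in replicate 2, and so were the 16 that follow in the order of rank.

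Several of the next regions were very strong in replicate 1 and moderate in replicate 2. On chromosome 16 from 32485014 to 32485936 the fold was 25.7 in replicate 1 and 6.96 in replicate 2, with 146 fragments over a background of 4.71 and 119 fragments over 16.3. Both libraries placed its summit within 1 bp, and a heart replicate 1 peak lay 61 bp from its edge. Another region of chromosome 16, from 32457642 to 32458701, ranked 18 with folds of 18.2 and 5.63 and summits at the same base. On chromosome 10 from 31005932 to 31006508 the folds were 25.3 and 6.53, and this region stood apart by its surroundings, with the nearest heart peak 120887 bp away. Chromosome 20 from 34191461 to 34192017 (folds of 17.2 and 6.68), chromosome 6 from 9967506 to 9968104 (21.5 and 6.67) and chromosome 9 from 43649526 to 43650157 (22.03 and 6.12) had the same lopsided form.

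Other strong regions differed less between the libraries, with less than 2 times the fold in replicate 1, like the chromosome 17 region described first. The region of chromosome 18 from 9841035 to 9841602 had folds of 9.51 (replicate 1) and 6.43 (replicate 2). On chromosome 13 from 22579632 to 22581106, near the middle of the chromosome, it was 9.31 and 7.07. A second region of chromosome 18, from 43426926 to 43427852, had folds of 9.17 and 6.38, with the nearest heart peak 40330 bp away. Chromosome 12 from 2442913 to 2443778 had folds of 9.07 and 5.73. These 4 had rank percentiles between 12.9 and 20.8 in both libraries.

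The remaining regions among the 20 strongest lay on chromosome 7 (42423702 to 42424230 and 1372643 to 1373195), chromosome 9 (992511 to 993166 and 4435601 to 4436493), chromosome 15 (3711440 to 3711941) and chromosome 8 (46105021 to 46105597). Of all 20, 12 had at least 2 times the fold in replicate 1, 5 had a heart peak within 1000 bp, and 5 had none within 10000 bp. They were spread over 14 chromosomes, and their median width was 644 bp.

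Across all 530 regions the globular libraries differed in how strong they were. In replicate 1 the fold ranged from 5.61 to 28.2 with a median of 12.9. In replicate 2 it ranged from 3.63 to 13.5 with a median of 4.02, which is close to the lowest fold that the 50% limit allowed, 3.63. The median rank percentile was 8.14 in replicate 1 and 41.5 in replicate 2. In replicate 1, 312 of the regions (58.9%) were in the top 10% of the list, and in replicate 2 only 4 were (0.755%), while 300 (56.6%) ranked between 40 and 50. The label of sites strong in both libraries therefore holds for the limit of 50%, but with a stricter limit few remained: 220 regions were in the top 40% of both lists, 60 in the top 30% and 13 in the top 20%.

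The limit cut through a continuous run of values in replicate 2. The last 3 regions inside it were all on chromosome 2, from 25968571 to 25968979, from 2473583 to 2474076 and from 37784573 to 37785102, each with a fold of 3.63 in replicate 2 and with folds of 12.2, 10.03 and 13.3 in replicate 1. Just outside were regions on chromosome 8 (13522242 to 13522975, folds of 16.7 in replicate 1 and 3.63 in replicate 2), chromosome 2 (9733212 to 9734114, folds of 5.61 and 3.84) and chromosome 2 again (12000825 to 12001367, folds of 18.01 and 3.62). Regions on either side of the limit had nearly the same fold in the library that placed them.

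Fragment counts showed what these folds rest on. The fold and p of a peak together fix the number of fragments at the summit and the background, if the caller's published formulas hold. All 530 regions gave a whole number in both libraries, within 0.002 in −log10 p. The median was 84 fragments over a background of 5.38 in replicate 1 and 72 over 16.6 in replicate 2, so that the fragment numbers were similar and the background was the higher one in replicate 2. Strong regions called in all 4 libraries had the reverse order of fragment counts, with medians of 52 in replicate 1 and 122.5 in replicate 2, over backgrounds of 5.02 and 17.8. The background under the regions studied here was thus close to that under shared strong regions in each library. These counts belong to 1 library each and carry counting error only.

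**Figure D1:**
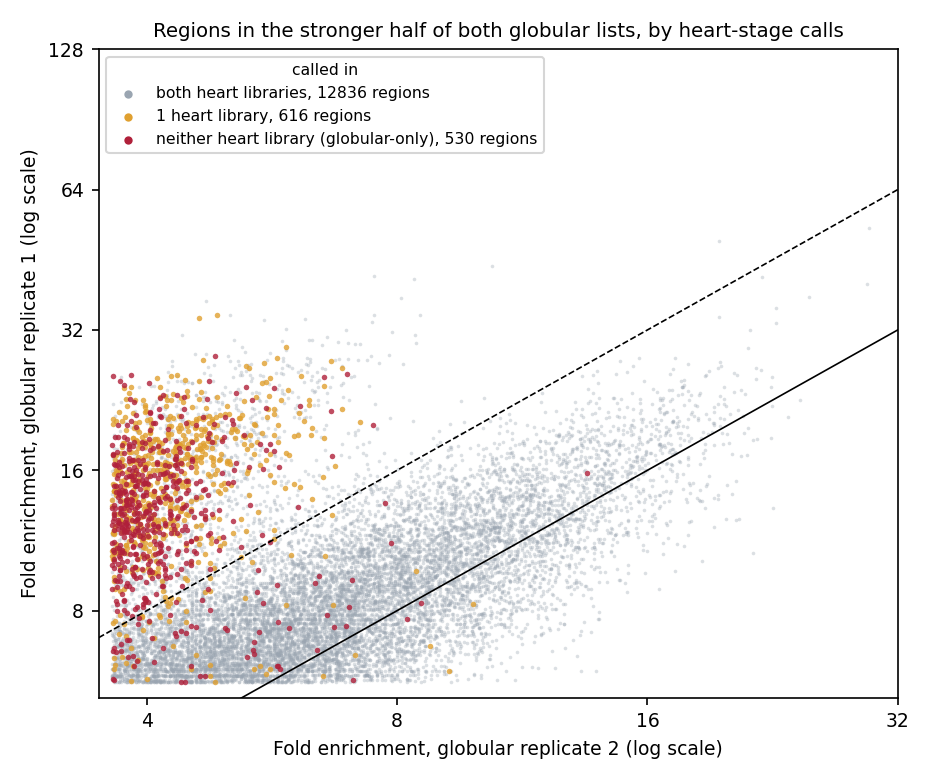
Fold enrichment in globular replicate 1 (vertical, log scale) against globular replicate 2 (horizontal, log scale) for the 13982 regions in the stronger 50% of both globular lists, coloured by heart-stage calls; the solid line marks equal folds and the dashed line 2 times the fold in replicate 1. Most of the 530 globular-only regions lie above the dashed line at folds under 5 in replicate 2, while most of the 12836 regions called in both heart libraries lie below it.

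The ratio of the 2 folds had 2 maxima among strong globular regions, and most globular-only regions were near the one with the higher signal in replicate 1. The fold in replicate 1 was at least 2 times that in replicate 2 in 464 of the 530 regions (87.5%), against 1180 of the 12836 strong regions called in all 4 libraries (9.19%). The median ratio was 3.17 in the former and 1.27 in the latter. Counted in steps of 0.25 in the log2 ratio, all strong regions peaked at 3080 between 0.25 and 0.5, numbered 332 between 1.25 and 1.5, and had another maximum of 475 between 1.75 and 2. Globular-only regions made up 0.374% of regions with a log2 ratio between 0 and 0.5, 1.22% between 0.5 and 1, 17.2% between 1 and 1.5, 26.5% between 1.5 and 2 and 17.4% above 2. Both folds entered the rule, so these shares describe the regions and are not tested.

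Heart-stage calls at strong globular regions ranked lower as the excess of globular replicate 1 grew. Among strong globular regions called in all 4 libraries, the median heart rank percentile was 10.6 in heart replicate 1 and 12.8 in heart replicate 2 where the log2 ratio was between 0 and 0.5. It was 21.6 and 26.6 between 1 and 1.5, 59.6 and 72.7 between 1.5 and 2, and 62.2 and 75.2 above 2. Over all 1180 shared strong regions with at least 2 times the fold in globular replicate 1 it was 49.0 and 59.6. A further 616 strong globular regions had a call in just 1 heart library, 520 in heart replicate 1 and 96 in heart replicate 2, and 562 of them had at least 2 times the fold in globular replicate 1. Of the globular-only regions, 337 had a log2 ratio of 1.5 or more, where 72.3% of shared strong regions had their heart replicate 1 peak, and 82.6% their heart replicate 2 peak, in the weaker 50% of the list. The other 193 had lower ratios, and these shares were 2.50% and 4.75% over all 12182 shared strong regions under 1.5. The sets are not matched in ratio there. Of the 193, 127 had a log2 ratio between 1 and 1.5, against 526 of the 12182. The number of regions without a heart call was 1053 without heart replicate 1 and 626 without heart replicate 2. It was 6004 without globular replicate 2, where strength in replicate 1 alone sets the class, and 642 without globular replicate 1. Each of these sets has a looser rule and must hold at least as many regions.

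**Figure D2:**
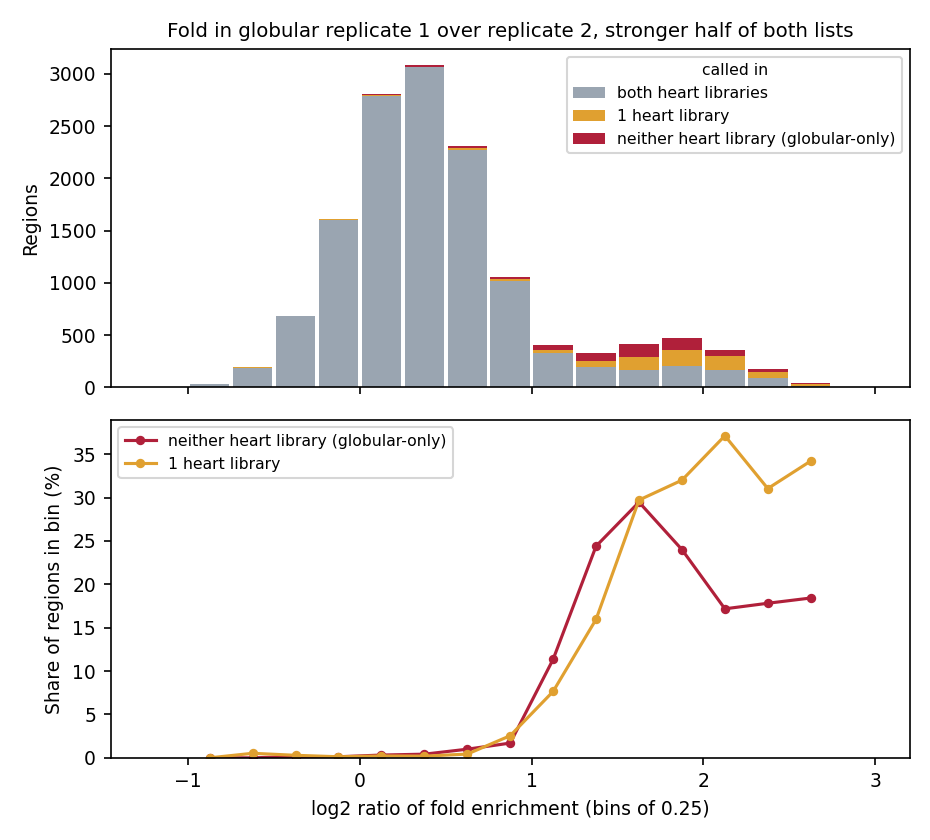
Upper panel: number of regions in the stronger 50% of both globular lists (vertical) by the log2 ratio of fold in globular replicate 1 over replicate 2 (horizontal, bins of 0.25), with the heart-stage calls stacked; lower panel: share of each bin, in percent, called in neither or in 1 heart library, for bins of at least 20 regions. Each of the 2 shares taken alone stays under 3% up to a log2 ratio of 1, and the share of globular-only regions is 17.2% to 29.5% in the bins from 1.25 to 2.75.

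The 2 ranks together showed where globular-only regions were frequent. Of regions in the top 10% of replicate 1, 1 of 1741 was globular-only when it was also in the top 10% of replicate 2. That share was 7.73% (30 of 388) when the rank in replicate 2 was between 20 and 30, 19.6% (96 of 491) between 30 and 40 and 37.0% (177 of 479) between 40 and 50. Of regions ranked between 40 and 50 in both libraries, only 1.67% (7 of 419) were globular-only. A middling rank in replicate 2 thus went with a missing heart call where replicate 1 was strong, and seldom where replicate 1 was middling too. Both ranks and the heart calls entered the rule, so these shares are a description and were not tested.

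**Figure D3:**
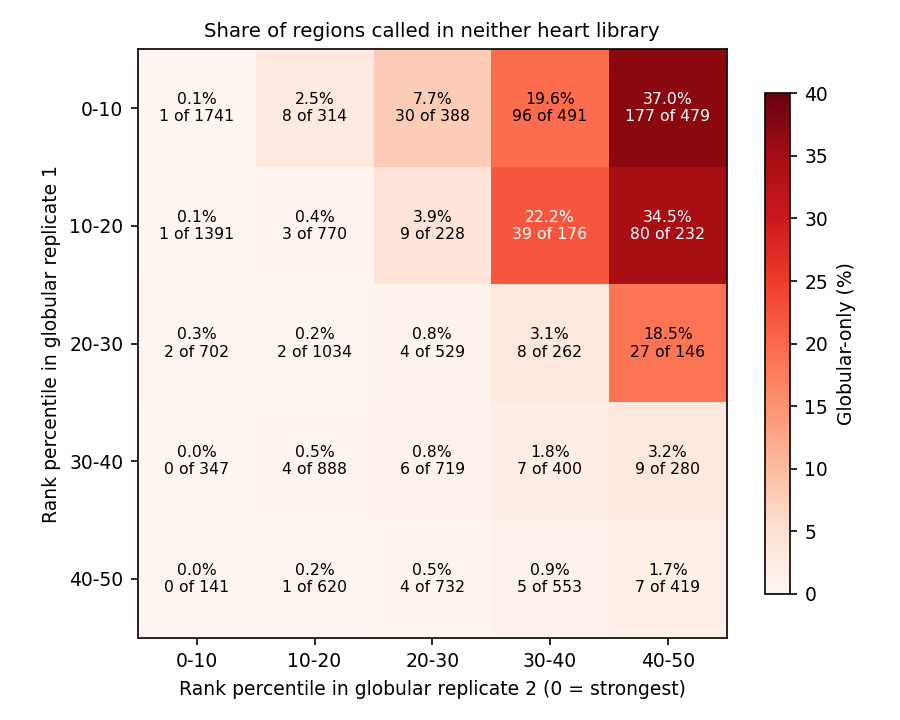
Share of regions called in neither heart library, in percent with the counts behind it, by rank percentile in globular replicate 1 (vertical) and replicate 2 (horizontal), both in steps of 10 with 0 as the strongest. The highest shares, 37.0% and 34.5%, are in the top 20% of replicate 1 at ranks of 40 to 50 in replicate 2.

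The other 66 globular-only regions had less than 2 times the fold in replicate 1. Their median fold was 7.18 in replicate 1 and 4.72 in replicate 2, over medians of 47 and 86.5 fragments. Just 3 of them, and of all 530, had a higher fold in replicate 2. These lay on chromosome 9 from 48124602 to 48125256 (folds of 8.29 in replicate 1 and 8.54 in replicate 2), on chromosome 2 from 42309957 to 42310987 (7.67 and 8.21) and on chromosome 19 from 45465242 to 45466811 (5.68 and 7.08). A higher fold in replicate 2 was found in 2519 of the 12836 shared strong regions (19.6%). It was as rare as here in strong globular regions with 1 heart call, 5 of 616 (0.812%). None of the 2311 globular-only regions strong in replicate 1 only had it, but the rule for that set fixes this. Their folds were at least 5.61 in replicate 1 and at most 3.63 in replicate 2. The 66 regions had a median width of 642.5 bp, against 562.5 bp for the other 464. They had a heart peak within 1000 bp in 19 cases (28.8%), close to the 27.4% of the others.

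The globular-only regions were shorter than strong regions called in all 4 libraries and seldom held more than 1 peak of a library. Their median width was 567 bp, from 370 to 1682 bp, against 890 bp for strong regions called in all 4 libraries, whose width joins up to 4 lists. The width of the best peak within 1 library avoids that: it was 555 bp against 598 bp in replicate 1 and 413 bp against 705 bp in replicate 2. Shared strong regions with at least 2 times the fold in replicate 1 had 685 bp and 552.5 bp. Strong globular regions with a call in just 1 heart library had 604 bp and 442 bp. Over all strong globular regions, the median region width fell from 1209 bp to 701 bp as the worse rank went from 0 to 10 to 40 to 50. Widths were not compared at equal rank. More than 1 peak of a library was found in 1 globular-only region for replicate 1 (0.189%) and in 4 for replicate 2 (0.755%), against 11.8% and 6.61% of the shared strong regions. In shared strong regions with at least 2 times the fold in replicate 1 it was 5.34% and 5.51%. Peaks of 1 library join only through a peak of another list, and shared regions have more such lists, so these counts also depend on the number of lists. The other regions called at 1 stage were alike in width and number of peaks: globular-only regions strong in replicate 1 only had a median width of 501 bp, with more than 1 peak of a library in 0.433%, and strong heart-only regions had 491 bp and 0.828%. The widest regions were on chromosome 2 (10214966 to 10216647, 1682 bp), chromosome 11 (5626822 to 5628467 and 8822522 to 8824105), chromosome 9 (39779463 to 39781052) and chromosome 19 (45465242 to 45466811). In 4 of these 5 the peak of replicate 2 was the wider one. The region on chromosome 11 at 5626822 had a peak of 1450 bp in replicate 1 and 2 peaks in replicate 2.

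The 2 globular libraries placed their summits close together. The rule asks for overlap of peaks, not of summits, and the median distance was 24 bp, with 430 of 530 regions (81.1%) within 50 bp and 19 (3.58%) more than 100 bp apart. In strong regions called in all 4 libraries the median was 31 bp, with 69.6% within 50 bp and 10.3% more than 100 bp apart. For globular-only regions strong in replicate 1 only, the median was 28 bp, with 74.4% within 50 bp. Narrow peaks leave less room for summits to differ, and this was not separated here. The chromosome 11 region at 8822522 had the summits farthest apart, at 608 bp.

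Most regions had a heart-stage peak within 5000 bp, though heart peaks were less near than around shared sites. The median gap from the edge of a region to the nearest heart peak was 2451 bp. A heart peak lay within 1000 bp of 146 regions (27.5%, exact Clopper-Pearson 95% interval 23.8% to 31.6%, which treats regions as independent), within 5000 bp of 381 (71.9%) and within 10000 bp of 463 (87.4%). Around strong regions called in all 4 libraries, the nearest heart peak outside the region was a median of 967 bp away, and 51.1% had one within 1000 bp. Where such shared regions had at least 2 times the fold in globular replicate 1, the median was 1292 bp and the share 42.8%. Globular-only regions strong in replicate 1 only had a median gap of 2057.5 bp and a share of 29.0%, near the values of the 530 regions. Shared regions were wider, and gaps were measured from the edges, so width moves with this difference. The part of width in it was not tested. Strong heart-only regions had a heart peak of another region within 1000 bp in 37.9% of cases and within 5000 bp in 73.4%. The gaps were not compared with other positions of the genome, so nearness was not separated from how dense heart peaks are.

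In 239 cases (45.1%) the nearest heart peak belonged to a region called in all 4 libraries. Its median rank percentile was 55.6, and in 282 cases it was in the weaker 50% of its own list. In 5 cases a heart peak touched the region without reaching the overlap that joins peaks. Beside the chromosome 2 region these were on chromosome 4 from 49738005 to 49738622 (overlap of 163 bp), chromosome 13 from 16921006 to 16921912 (335 bp), chromosome 1 from 50825128 to 50825724 (32 bp) and chromosome 10 from 43698411 to 43699138 (68 bp). On chromosomes 13 and 4 the touching peak was in the stronger 50% of heart replicate 1, with folds of 6.98 and 6.32.

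At the other end, 6 regions had no heart peak within 50000 bp on their chromosome. The farthest was on chromosome 5 from 26273494 to 26274030, with folds of 9.92 in replicate 1 and 3.75 in replicate 2 and a gap of 132326 bp. After the chromosome 10 region described above came chromosome 20 from 24099365 to 24099888 (folds of 9.68 and 4.02, gap of 106612 bp), chromosome 12 from 15475891 to 15476492 (18.9 and 3.76, 82076 bp) and chromosome 3 from 8069045 to 8070002 (7.40 and 4.52, 62005 bp). The first 4 of these isolated regions were in the inner part of their chromosomes, at 62.2%, 60.1%, 50.3% and 38.6% of the extent of the peaks, where strong regions were less frequent. The chromosome 3 region was at 17.6%.

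**Figure D4:**
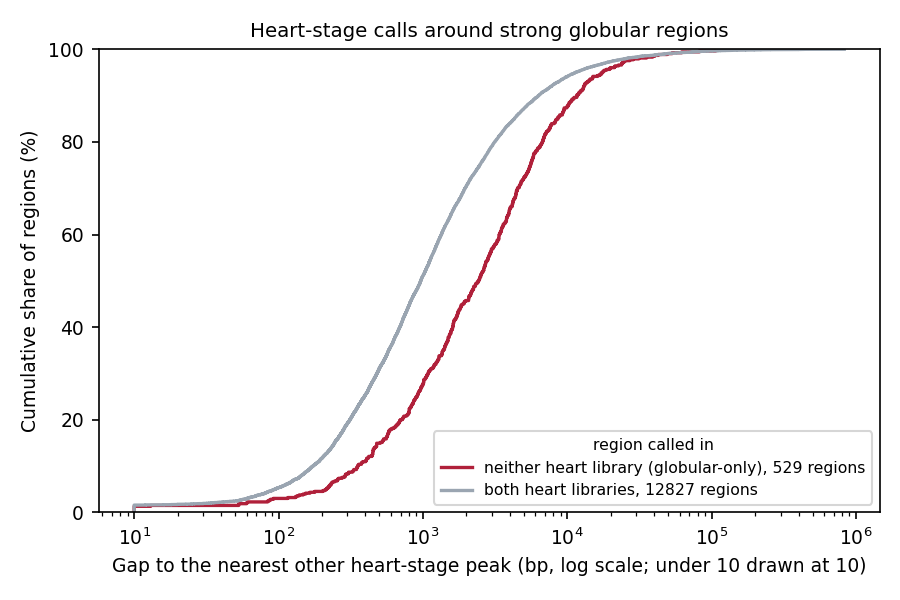
Cumulative share of regions, in percent, by the gap in bp (log scale) to the nearest heart-stage peak of another region, for globular-only regions and for regions called in both heart libraries, all in the stronger 50% of both globular lists; 1 globular-only region and 9 shared regions on scaffolds without another heart peak are left out. The curve of the globular-only regions lies to the right, with medians of 2451 bp and 967 bp.

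Like the other strong sites, the regions were most frequent toward the chromosome ends. Of the 527 on the 20 chromosomes, 384 (72.9%, exact 95% interval 68.9% to 76.6%) lay in the outer 20% at either end. The interval treats regions as independent, although the share differed between chromosomes, from 37.5% to 100%. The share was 70.3% for the shared strong regions and 73.7% for globular-only regions strong in replicate 1 only. Per chromosome the share was 75.3% ± 16.3 (SD, n = 20 chromosomes), against 71.8% ± 11.2 for shared strong regions, and it was the higher of the 2 on 14 of 20 chromosomes. The difference was 3.53 ± 8.79 points (SD, n = 20 chromosomes) and was not tested. Against globular-only regions strong in replicate 1 only, the share was higher on 10 of 20 chromosomes. That difference was 0.488 ± 7.77 points (SD, n = 20 chromosomes) and was not tested either. All 22 regions of chromosome 1 lay in the outer part, and on chromosome 13 only 37.5% did, close to the 36.7% of shared strong regions there.

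**Figure D5:**
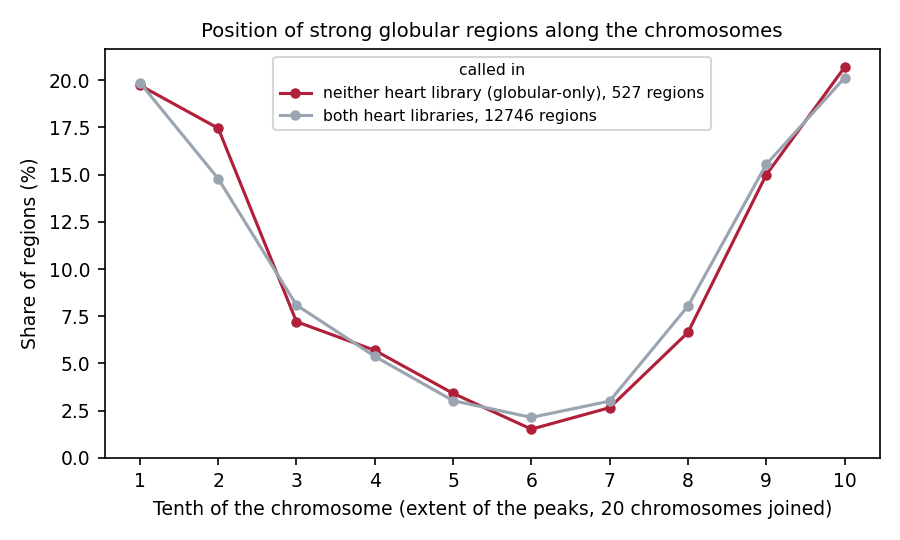
Share of regions, in percent, in each of 10 equal parts of a chromosome, numbered from 1 end to the other and summed over 20 chromosomes, for globular-only regions and regions called in both heart libraries, all in the stronger 50% of both globular lists. Both curves are highest in parts 1 and 10, at 19.7% to 20.7%, and lowest in part 6, at 1.52% and 2.14%.

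Every chromosome held some of them. The number ranged from 15 on chromosome 3 to 48 on chromosome 13, or from 0.328 to 1.05 per Mb with a mean of 0.568 ± 0.194 (SD, n = 20 chromosomes). Chromosome 13 was also the densest in shared strong regions, at 21.1 per Mb against a mean of 13.6 ± 2.89. As a share of all strong globular regions of a chromosome, the globular-only regions made up 3.77% ± 0.598, from 2.45% on chromosome 3 to 4.78% on chromosome 11. Another 3 regions were on unplaced scaffolds.

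With globular-only regions up to 100000 bp apart counted as a group, 424 of the 530 stood by themselves, 44 groups had 2 members and 6 had 3. This count depends on how few regions the rule kept, a mean of 0.568 per Mb. It was not made for another set, so it does not mark these regions as more scattered or more grouped than others. The tightest group of 3 was on chromosome 17 from 40001631 to 40061527, and others lay on chromosome 11 from 5626822 to 5690331 and on chromosome 5 from 2749336 to 2859167. In the chromosome 17 group, 2 regions were only 92 bp apart, with folds of 14.6 and 14.9 in replicate 1 and of 4.70 and 3.89 in replicate 2. A pair on chromosome 19, from 50075709 to 50076433 and from 50076808 to 50077466, was 374 bp apart, with folds of 16.1 and 10.6 in replicate 1 and of 3.98 and 3.82 in replicate 2. These were the only pairs closer than 5000 bp. The strongest region of all, also on chromosome 17, formed a group of 2 with a region from 40742393 to 40742906, whose folds were 18.7 and 3.78.

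Set beside the 845 strong heart-only regions, the globular-only regions differed in how the libraries of the stage ranked them. The heart-only regions had a median rank percentile of 33.6 in heart replicate 1 and 40.1 in heart replicate 2, and a median fold of 6.70 and 5.76. The corresponding ranks of the globular-only regions were 8.14 and 41.5. These ranks entered the rule for each set, so the difference is a description and was not tested. The median width of the heart-only regions was 491 bp, and 72.1% of those on chromosomes lay in the outer part. Folds are not compared between stages, since they are relative to the background set for each library. In the list of globular replicate 2, peaks carry a name with the words BR1 and Input, unlike the other 3 lists. Which input served as its control is not stated in the labels, and whether that bears on the gap between the globular libraries was not tested. Globular replicate 2 and globular input replicate 2 were also numbered apart from the other samples of the series. The labels do not say why, and whether it bears on the gap was not tested.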

How the data were processed

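The submitters' processing notes name MACS2, SAMtools 0.1.18 and Bowtie 0.12.7. The sources used here give no roles, settings, genome build or controls. Each of the 4 ChIP libraries has its own deposited peak list in narrowPeak layout. The deposited fold column is a ratio over the local background, the p and q columns were deposited as −log10 values, and the deposited score restates −log10 q. The lowest −log10 q was 2.00 to 2.04. The lists hold 46027 and 44581 globular peaks and 60537 and 50579 heart peaks, and read totals are not in them. Lists were used as deposited and ranked by fold, with ties sharing a mean rank.

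Fragment counts were computed from fold, taken as count plus 1 over background plus 1, and the Poisson p, leaving out peaks with −log10 p of 250 or more. Joining and recovery were tested on simulated data. Python 3.11.15, numpy 2.4.6, pandas 2.3.3, scipy 1.17.1 and matplotlib 3.10.9 were used. The regions named are the 20 strongest by the worse globular rank, those at the rank limit, the 5 widest, the 5 farthest from a heart peak, the tightest groups of 3 and those touched by a heart peak; the 3 with the higher fold in replicate 2 and the 2 close pairs were named after their values were seen. The members, the split at 2 times the fold and the comparisons were chosen with earlier results of these data known. Counts and intervals cover counting error only. The regions were not assigned to genes and no sequence is shown, because a genome or annotation of the build of the files was not used here.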

Additional observations from a re-analysis of the deposited data

How the results depend on the processing

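The number of regions, 530, was between 452 and 626 in 7 of 8 other settings that kept it within 1.5 times, and 642 without globular replicate 1. It was 932 with summits within 100 bp as the criterion for joining, 220, 32 and 995 with limits of 40%, 25% and 60%, and 989 with lists of equal length, which drops the weakest heart peaks. Leaving out single libraries gave 626 to 6004 (1053 without heart replicate 1), where the rule asks for fewer libraries. Ranked by −log10 p the number was 534, and 474 of the 530 regions overlapped one of these. Asking for a −log10 q of at least 5 in the globular lists left all 530. Their −log10 p was at least 15.1 in replicate 1 and 16.9 in replicate 2, so that setting says little about how stable the number is. The share in the outer part of chromosomes was 71.7% to 74.5% in all 15 settings that kept its definition, leaving out a library included (71.7% to 73.2%), and 40.4% for the outer 10% at either end. The share with a heart peak within 1000 bp was 60.4% with joining by summits, where overlapping heart peaks count as near, 15.04% after leaving out regions with a heart peak within 500 bp, 22.8% (without heart replicate 1) to 29.0% without single libraries and 25% to 29.6% in the other settings with the same distance; within 500 bp and 5000 bp it was 14.7% and 71.9%. No paired analysis was possible because the results come from no test and no label links replicate numbers of the 2 stages. Heart sites below the calling threshold are not in the lists. Read totals are not in them either, so whether depth bears on the absence of heart calls was not tested.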

Other observations

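The 616 strong globular regions with a call in just 1 heart library had a median fold ratio of globular replicate 1 over replicate 2 of 3.58, against 3.17 for globular-only regions and 1.27 for shared strong regions. Their median rank percentile in globular replicate 1 was 4.12, against 8.14 and 24.7. Their globular summits were within 50 bp in 83.0% of cases, against 81.1% and 69.6%. A heart peak of another region lay within 1000 bp of 35.9% of them, between the 27.5% of globular-only regions and the 51.1% of shared strong regions. Of these 616 calls, 520 were in heart replicate 1, the longest of the 4 lists. These values are a description, and no test was made.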
